A study of Homo sapiens with 2 samples.

Results

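The 6 genes described here, TNF, TNFSF10, TNFSF13B, TNFSF15, LTB and TNFSF9, encode ligands of the tumour necrosis factor (TNF) superfamily, and they were chosen by symbol from the 36601 genes listed for each library. Each symbol matched exactly 1 row. The data come from colon organoids grown from 1 human induced pluripotent stem cell line, 1383D6, and profiled by droplet single-cell RNA sequencing of transcript 3′ ends. The study set out, by its title, to build a model of ulcerative colitis. The control library (CNT) came from organoids without added cytokines, and the treated library (3CK) from organoids given TNF-α, IFN-γ and IL-1β together for 8 days. Both were made from cells differentiated with Activin A and then FGF2 (100 ng/mL each), followed in Matrigel by EGF (20 ng/mL), forskolin (30 µM), PD98059 (20 µM), 5-aza-2′-deoxycytidine (5 µM) and a compound at 0.5 µM whose name the label text gives only as A-83. About 8300 cells were loaded per library. Each group is 1 library of 1 cell line, so there is no replicate check and no test. Each interval given below is a 95% counting interval: it covers counting error only and says nothing about the spread between cultures.

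Ligands of this superfamily are made as transmembrane proteins that work as trimers, and several are shed from the cell surface in soluble form. They bind receptors that signal through TRAF adaptors to NF-κB and the MAP kinases or, for receptors with a death domain, to caspases. In the gut they are known mainly as products of leukocytes, and TNF is the target of antibodies used against inflammatory bowel disease. TNF is also 1 of the 3 agents that were added here; it was added as protein, whereas the counts are of the cells' own transcripts.

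Counts were unique molecular identifiers (UMIs), each standing for 1 captured transcript, and a barcode stands for 1 droplet, mostly 1 cell. After filtering, 2487 CNT barcodes with 101831571 UMIs (median 28911 per barcode) and 1398 3CK barcodes with 91860414 UMIs (median 62746) remained, and no barcode sequence occurred in both libraries. Barcodes with at least 2 EPCAM UMIs per 10000 were called epithelial (1660 in CNT and 1016 in 3CK). Barcodes with at least 5 collagen UMIs (COL1A1, COL1A2 and COL3A1) per 10000 and under 1 of EPCAM were called mesenchymal (574 and 124), although the labels name colon epithelial cells only. The mesenchymal share was 23.1% in CNT and 8.87% in 3CK, so a level over a whole library mixes a change of makeup with a change within cells. None of the 8 epithelial markers, CDX2 and VIL1 among them, was under 1 UMI per 1000000 UMIs (CPM) in either library. In the epithelial class 497 CNT barcodes and 49 3CK barcodes also passed the collagen minimum.

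The leukocyte markers were looked at because leukocytes are a known source of these ligands. Over 17 such markers the summed level in CNT was 196 CPM and in 3CK 179 CPM, most of it from CD3D, CD68 and FCER1G. PTPRC, the gene of the pan-leukocyte antigen CD45, had 32 UMIs in the CNT library and 41 in the 3CK library; the cytotoxic-cell marker NKG7 had 0 and 1. A single 3CK barcode of the mesenchymal class held 28 of the 41 PTPRC UMIs, together with 203 of TYROBP, 88 of AIF1 and 71 of CD68. That barcode held 60 of the library's 33632 TNFSF10 UMIs, 22 of 4940 of TNFSF13B, 5 of 11695 of LTB and 1 of 1268 of TNF. Leaving it out changed no member's side of the 2-fold line in any comparison below. Within mesenchymal barcodes the leukocyte markers summed to 75.4 CPM in CNT but 224 CPM in 3CK; apart from leaving out that barcode, their part in the mesenchymal values was not tested.

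The 6 genes lie on 5 chromosomes of GRCh38 (gene bounds from GENCODE v44). TNFSF10 is on the minus strand at chr3:172505508-172523475, TNFSF15 on the minus strand at chr9:114784652-114806039, TNFSF13B on the plus strand at chr13:108251240-108308484 and TNFSF9 on the plus strand at chr19:6531026-6535924. TNF (chr6:31575565-31578336, plus strand) and LTB (chr6:31580525-31582522, minus strand) are neighbours in the major histocompatibility region that face each other tail to tail, with 2188 bases between their ends. TNFSF13B overlaps ENSG00000277246, a gene on the same strand with 8 UMIs in the CNT library and 7 in the treated one; the other members overlap no gene listed in the files.

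Promoter sequence is shown for 4 members, 250 bases upstream of the start for 3 of them and 30 bases just after the start for TNFSF13B, because these 4 carry matches to a motif of NF-κB, which TNF-α and IL-1β are known to activate, or to a motif of interferon-stimulated genes. The windows are from RefSeq (GRCh38.p14) and run 250 bases before each listed start to 50 after it. All 6 members matched the table, which gives 2 starts each for LTB and TNFSF13B; the first listed is used. The starts used for TNFSF15 (chr9:114792530) and TNFSF13B (chr13:108269629) lie well inside the gene bounds given above. The sequence at the outer 5′ end of those bounds was not searched. Capitals mark matches, on either strand, to GAAANNGAA, the repeated core of the interferon-stimulated response element, or to the NF-κB consensus. The consensus was searched in a strict form of 10 letters: 3 G, then A or G, any 2 letters, 2 of C or T, and 2 C. Only full matches were counted.
TNFSF10, chr3:172523431-172523680, minus strand: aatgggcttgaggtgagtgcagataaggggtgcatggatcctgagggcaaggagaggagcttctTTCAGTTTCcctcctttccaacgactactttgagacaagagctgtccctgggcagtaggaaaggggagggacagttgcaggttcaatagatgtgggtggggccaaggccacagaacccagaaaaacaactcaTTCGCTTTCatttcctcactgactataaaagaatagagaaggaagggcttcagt
LTB, chr6:31582426-31582675, minus strand: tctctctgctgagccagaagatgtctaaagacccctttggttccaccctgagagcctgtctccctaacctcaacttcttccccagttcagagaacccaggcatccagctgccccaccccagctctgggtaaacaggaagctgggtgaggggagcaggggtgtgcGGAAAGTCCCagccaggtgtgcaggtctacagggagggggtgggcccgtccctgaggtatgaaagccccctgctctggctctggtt
TNFSF9, chr19:6530776-6531025, plus strand: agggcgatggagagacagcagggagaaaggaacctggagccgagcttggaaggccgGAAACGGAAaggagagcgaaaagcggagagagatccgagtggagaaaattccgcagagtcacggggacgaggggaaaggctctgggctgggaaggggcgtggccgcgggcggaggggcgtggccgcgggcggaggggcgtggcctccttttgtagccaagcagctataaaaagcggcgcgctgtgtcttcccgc
TNFSF13B, chr13:108269637-108269666, plus strand, a stretch of 30 bases inside the transcribed side of the window: tacaaaaactGAAAGTGAAatgaggaagac

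The TNFSF10 window held 2 GAAANNGAA matches, at -186 and -54 from the start. TNFSF9 held 1 such match, at -194, and TNFSF13B held 1, at 19 bases downstream of the first start. Counted from the second TNFSF13B start, the same match lies upstream, at -71. LTB held the only full NF-κB consensus matches among the members, at -86 and at 39 downstream. No 2 of these matches overlap. TNF and TNFSF15 held no full match to either pattern in these windows. Sites that differ from the patterns by a letter were not searched for. Among all 35116 windows of that length, 8.11% held GAAANNGAA and 11.3% the NF-κB consensus, so each match is a description of the letters and not evidence of binding.

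Over all kept barcodes, 4 of the 6 ligands were at least 2-fold higher in 3CK than in CNT: TNFSF10, TNF, TNFSF13B and LTB. Among the 17523 genes that reached 1 CPM in either library, 6.96% were 2-fold or more higher in 3CK. The members' median log2 ratio was 2.88, beside -0.05 over all those genes. The members were chosen with earlier results of these data known, so this contrast, like those by class below, is a description only. The 7 other listed ligands of the family that reached 1 CPM had a median of 0.36. TNFSF9 and TNFSF15 were higher in 3CK by less than 2-fold. The order of the levels changed as well: LTB was the most abundant member in CNT and TNFSF10 in 3CK. Levels are set side by side between genes as counts of 3′ ends, which do not scale with transcript length. Differences in capture between genes were not measured, so the order is approximate.

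**Figure D1:**
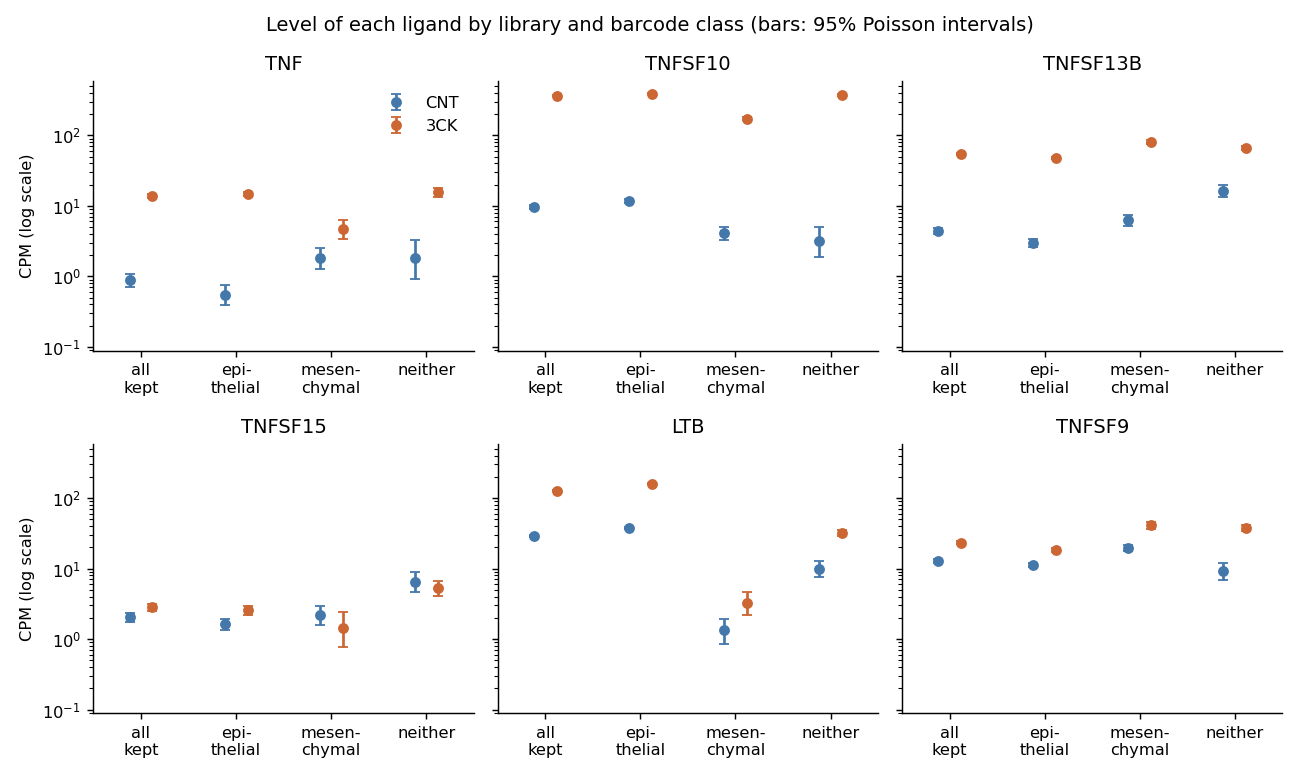
Level of each ligand in CPM (log axis) in all kept barcodes and in each barcode class, for CNT (blue) and 3CK (orange). Bars are 95% Poisson intervals of the UMI count; TNFSF10 lies highest in 3CK at 366 CPM over all kept barcodes, and LTB separates the classes most, at 161 CPM in epithelial and 3.29 CPM in mesenchymal 3CK barcodes.

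TNFSF10 encodes TRAIL, the ligand of the death receptors TNFRSF10A and TNFRSF10B. It had 984 UMIs in CNT (9.66 CPM, interval 9.07 to 10.3) and 33632 in 3CK (366 CPM, 362 to 370). The library without cytokines was thus low and the treated one 37.9-fold higher, a log2 ratio of 5.24 (5.15 to 5.34). The difference was present in each class: epithelial barcodes had 11.6 and 390 CPM (log2 ratio 5.07, 4.97 to 5.17), and mesenchymal ones had 4.07 and 171 CPM (5.39, 5.07 to 5.74). Barcodes of neither class had 3.16 CPM from only 19 UMIs in CNT and 375 CPM in 3CK. The intervals of the epithelial and the mesenchymal ratio overlap. They cover counting error only, and a difference in response between the classes was not tested for TNFSF10. Epithelial barcodes had the higher level in both libraries.

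Most 3CK barcodes held at least 1 TNFSF10 UMI. Among barcodes of at least 10000 UMIs, the median epithelial level was 189 CPM in 3CK and 0 in CNT, and 93.8% of such 3CK barcodes had a UMI, beside 31.0% in CNT. Deeper barcodes reveal more genes, so each barcode was also thinned at random to 5000 UMIs, which left out 943 of the 2487 CNT barcodes and 335 of the 1398 in 3CK as too shallow. After thinning, 50.6% of the 3CK barcodes (47.6 to 53.7) and 4.60% of those in CNT (3.61 to 5.77) had a TNFSF10 UMI; without thinning the shares were 76.1% and 14.8%. The most abundant single barcode held 578 UMIs, and 89 barcodes together held 50% of the gene's UMIs in 3CK, so the level was spread unevenly over many cells.

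TNF itself, the prototype of the family and ligand of TNFRSF1A and TNFRSF1B, was scarce in CNT. Only 89 UMIs were counted there (0.874 CPM, interval 0.702 to 1.08) and 1268 in 3CK (13.8 CPM, 13.1 to 14.6). That is a 15.8-fold higher level, a log2 ratio of 3.98 (3.67 to 4.31), yet the 3CK level was still the second lowest of the 6. With each barcode given equal weight the log2 ratio was 3.12. Within epithelial barcodes the ratio was larger, from 0.551 to 14.7 CPM (4.73, 4.29 to 5.22), on 42 CNT UMIs. Within mesenchymal barcodes it was from 1.83 to 4.72 CPM (1.36, 0.69 to 2.04), and those intervals for the classes do not overlap.

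The mesenchymal TNF values rest on few cells. A single CNT barcode held 16 of the 36 mesenchymal UMIs there, and a single 3CK barcode 16 of 43. Without those barcodes the mesenchymal log2 ratio was 1.56; it was 0.25 with a stricter collagen minimum of 20 and EPCAM under 0.5 per 10000, and 0.50 with each barcode given equal weight, which puts it within 2-fold. In epithelial barcodes TNF was concentrated too, with 222 of 1016 3CK barcodes positive at 4.64 UMIs each, and 28 of them holding 50% of the class's UMIs. After thinning, 4.33% of 3CK barcodes (3.19 to 5.73) and 0.389% of CNT barcodes (0.143 to 0.844) had a TNF UMI, against 20.6% and 1.85% without thinning.

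LTB encodes lymphotoxin-β, which holds lymphotoxin-α at the cell surface and engages LTBR, a receptor known for organising lymphoid tissue. Its 2930 UMIs in CNT (28.8 CPM, interval 27.7 to 29.8) made it the most abundant member without cytokines. In 3CK it had 11695 UMIs (127 CPM, 125 to 130), a 4.42-fold higher level and a log2 ratio of 2.15 (2.09 to 2.20). LTB was the member most restricted to epithelial barcodes, which held 97.1% of its UMIs in CNT and 96.3% in 3CK. There its level was 37.3 CPM for CNT and 161 CPM for 3CK (log2 ratio 2.10, 2.04 to 2.16).

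Mesenchymal barcodes had 26 LTB UMIs in CNT (1.32 CPM, interval 0.864 to 1.94) and 30 in 3CK (3.29 CPM, 2.22 to 4.70). Those levels are 3.54% and 2.05% of the epithelial ones. The 8 epithelial markers stood in mesenchymal barcodes at a median of 8.54% of their epithelial level in CNT (range 2.62% to 45.0%) and 3.76% in 3CK (2.21% to 42.8%). The summed mesenchymal LTB level is thus at the low end of the range of these markers or under it. As a mean over barcodes with equal weight it was higher, at 14.2 CPM beside 27.4 CPM in epithelial CNT barcodes and 42.9 beside 132 CPM in 3CK. The part of RNA from other cells in the mesenchymal LTB level was not tested. The other 5 members stood in mesenchymal barcodes at 32.1% or more of their epithelial level in both libraries, TNF in 3CK being the lowest, which is above the marker medians. TNFSF10 in CNT (35.0%) and TNF in 3CK were still under the highest marker of their own library, and TNFSF10 in 3CK (43.9%) was just above it. That marker was GRHL2 in CNT and CDX2 in 3CK, where ELF3 followed at 33.2% and VIL1 at 4.49%. Whether mesenchymal cells express these markers themselves was not tested, so the highest marker sets no upper limit on RNA from other cells. After thinning, LTB was seen in 31.8% of 776 epithelial 3CK barcodes and 2.80% of 107 mesenchymal ones; in CNT it was seen in 8.47% of 1062 epithelial barcodes and in 0 of 320 mesenchymal ones. A limit of 3 counts puts the share of mesenchymal CNT barcodes with an LTB UMI at that depth at up to 0.938%, which is no limit on cells expressing LTB: without thinning, 24 of 574 (4.18%) had a UMI. Median depth in 3CK was 72198 UMIs for the epithelial and 65363 for the mesenchymal class.

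The CNT level of LTB came from few cells. In CNT 17 barcodes held 50% of its UMIs and 1 held 275 of 2930, whereas in 3CK 59 barcodes held 50% and the richest held 441 of 11695. The single richest barcodes of the libraries were close in LTB level, while the upper range of epithelial barcodes was not. Without thinning, positive epithelial barcodes held 8.49 LTB UMIs each in CNT and 19.2 in 3CK, at unlike depth. The highest value among barcodes of at least 10000 UMIs was 3639 CPM for CNT and 3821 CPM for 3CK. The 90th percentile of the epithelial barcodes of that depth was 61.4 CPM for CNT and 443 CPM for 3CK.

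**Figure D2:**
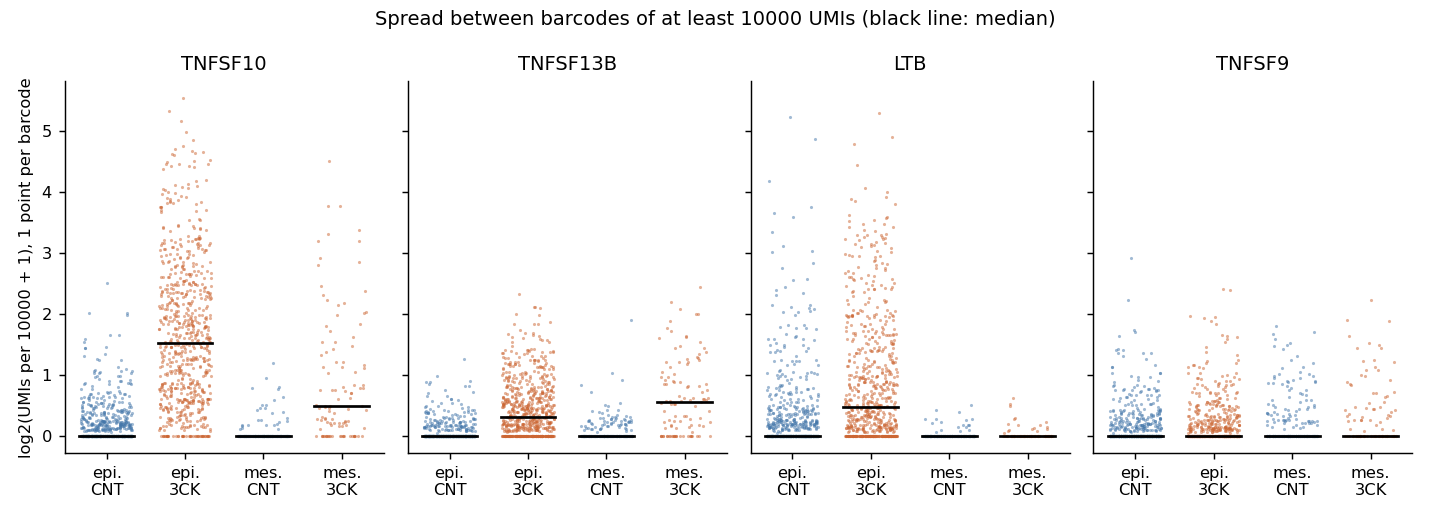
Level of 4 ligands in each epithelial (epi.) or mesenchymal (mes.) barcode of at least 10000 UMIs, as log2(UMIs per 10000 + 1), with CNT in blue, 3CK in orange and the median as a black line. The 3CK medians are above 0 for TNFSF10 and TNFSF13B in both classes and for LTB in epithelial barcodes, while the highest LTB values of the libraries lie close together.

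TNFSF13B encodes BAFF, the B-cell survival factor bound by TNFRSF13B, TNFRSF13C and TNFRSF17. It had 450 UMIs in CNT (4.42 CPM, interval 4.02 to 4.85) and 4940 in 3CK (53.8 CPM, 52.3 to 55.3). The 3CK level was 12.2-fold higher, a log2 ratio of 3.61 (3.47 to 3.75). Unlike TNFSF10 and LTB, TNFSF13B was at a higher CPM in mesenchymal than in epithelial 3CK barcodes, at 80.4 CPM (74.7 to 86.4) and 48.0 CPM (46.4 to 49.6). The 3CK to CNT ratio was 4.00 (3.81 to 4.20) in epithelial and 3.68 (3.41 to 3.97) in mesenchymal barcodes, with overlapping intervals. After thinning, 35.5% of mesenchymal 3CK barcodes (26.5 to 45.4) and 16.9% of epithelial ones (14.3 to 19.7) had a TNFSF13B UMI. No barcode dominated it in 3CK, where 117 barcodes held 50% of its UMIs, more than for any other member; in CNT a single barcode of neither class held 41 of 450.

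TNFSF9 encodes the 4-1BB ligand, a co-stimulator of T cells through TNFRSF9. It had 1296 UMIs in CNT (12.7 CPM, interval 12.0 to 13.4) and 2132 in 3CK (23.2 CPM, 22.2 to 24.2), a log2 ratio of 0.87 (0.77 to 0.97). Its level was 11.3 and 18.4 CPM in epithelial barcodes (0.71, 0.58 to 0.83) and 19.5 and 40.9 CPM in mesenchymal ones (1.07, 0.86 to 1.28). The epithelial value pools ranges of TTR, given below, whose proportions and TNFSF9 levels differed between the libraries. In the lowest of these ranges TNFSF9 was lower in 3CK than in CNT. The mesenchymal value is at the 2-fold line: it was 0.99 without the richest barcode of each library. In 3CK the TNFSF9 level was 2.23-fold as high in mesenchymal as in epithelial barcodes.

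TNFSF15 encodes TL1A, the ligand of TNFRSF25 and the protein product of a gene known for its association with inflammatory bowel disease. It had 206 UMIs in CNT (2.02 CPM, interval 1.76 to 2.32) and 258 in 3CK (2.81 CPM, 2.48 to 3.17), which made it the lowest member in 3CK. The log2 ratio was 0.47 (0.20 to 0.74) over all kept barcodes. It was 0.65 (0.31 to 0.99) in epithelial barcodes and -0.62 (-1.64 to 0.30) in mesenchymal ones, where 17 of the 43 CNT UMIs came from 1 barcode and 3CK had 13 UMIs. With each barcode given equal weight those values turned to -0.05 and 0.65. After thinning, the share with a TNFSF15 UMI was 1.41% in 3CK (0.792 to 2.32) and 0.842% in CNT (0.449 to 1.44). These intervals overlap, and the difference was not tested.

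In epithelial barcodes alone, the same 4 members were at least 2-fold higher in 3CK, beside 8.48% of 16809 genes. The members' median log2 ratio there was 3.05, and that of all genes 0.01. In mesenchymal barcodes 5 of 6 were at least 2-fold higher, all but TNFSF15, beside 6.05% of 17353 genes, with medians of 1.34 and -0.21. The mesenchymal count includes LTB, on 26 and 30 UMIs, and TNF and TNFSF9, whose calls depend on single barcodes or on the class limits; TNFSF10 and TNFSF13B were past 2-fold there under each alternative tried.

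**Figure D3:**
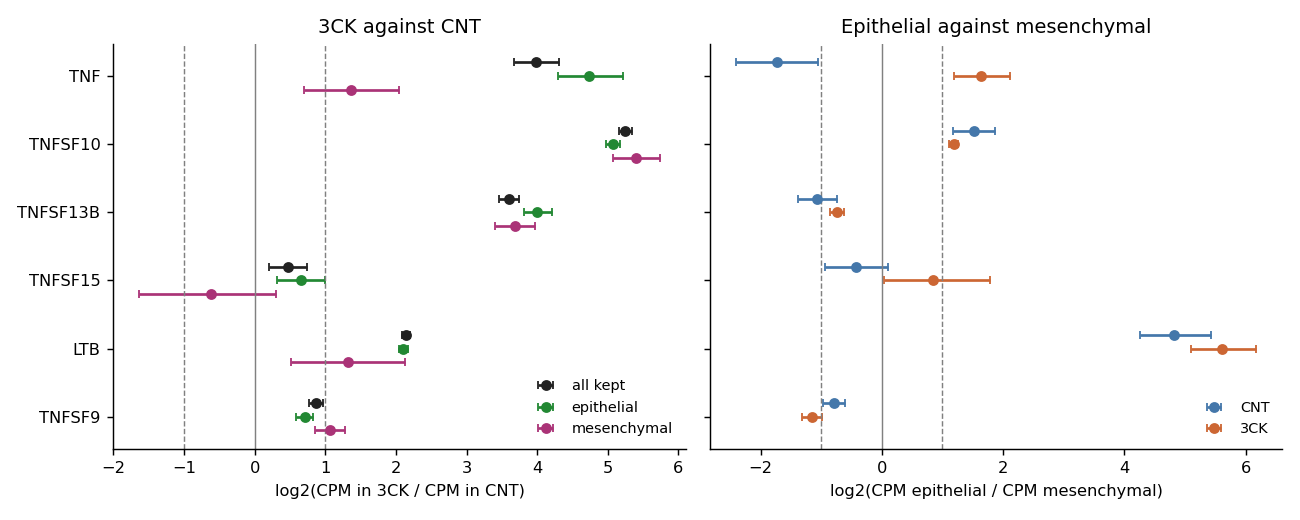
Log2 ratios of CPM for the 6 ligands, left for 3CK against CNT in all kept, epithelial and mesenchymal barcodes and right for epithelial against mesenchymal barcodes within each library; bars are 95% exact counting intervals and dashed lines mark 2-fold. TNFSF10 has the highest 3CK to CNT ratio in each of the 3 sets on the left, at 5.24, 5.07 and 5.39, and LTB the highest class ratio on the right.

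Between the classes of 3CK, 3 members were at least 2-fold higher in epithelial barcodes, LTB (log2 ratio 5.61, 5.09 to 6.18), TNF (1.64, 1.20 to 2.11) and TNFSF10 (1.19, 1.11 to 1.26); 16.8% of 17177 genes were. TNFSF9 was the 1 member at least 2-fold lower (-1.16, -1.32 to -0.99), as were 19.0% of the genes. TNFSF13B was lower by less (-0.74, -0.86 to -0.63), and TNFSF15 was higher with an interval from 0.03 to 1.78. In CNT, LTB (4.82, 4.26 to 5.44) and TNFSF10 (1.51, 1.18 to 1.86) were at least 2-fold higher in epithelial barcodes, beside 15.1% of 18033 genes. TNF (-1.73, -2.41 to -1.05) and TNFSF13B (-1.06, -1.39 to -0.74) were at least 2-fold lower, beside 26.1%. The class order of TNF thus differed between the libraries, higher in mesenchymal CNT barcodes and higher in epithelial 3CK barcodes. With each barcode given equal weight the LTB ratio was 1.62 in 3CK and 0.95 in CNT, where the shallowest mesenchymal barcode with an LTB UMI had 658 UMIs in all; the CNT ratio of TNFSF13B then turned to 0.36 and that of TNFSF15 from -0.43 to 1.36. The 3CK ratio of TNFSF9 was then -0.86, within 2-fold. The CNT ratio was -0.99 for TNF and -0.91 for TNFSF13B without the richest barcode of each class, which takes both within 2-fold. The classes share 1 library in each comparison, so these are differences between 2 pools of barcodes.

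The share of a member's UMIs held by single barcodes was compared because it tells a broad low level from a few rich cells. In CNT, 9 barcodes held 50% of the TNF UMIs, 21 of TNFSF15, 45 of TNFSF9, 59 of TNFSF13B and 60 of TNFSF10. In 3CK these numbers were 37, 28, 49, 117 and 89. TNFSF10 and TNFSF13B were thus spread over more barcodes in 3CK, as were TNF and LTB, although that library has fewer barcodes, while TNFSF9 differed little. The number of barcodes also depends on how many UMIs a gene has.

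**Figure D4:**
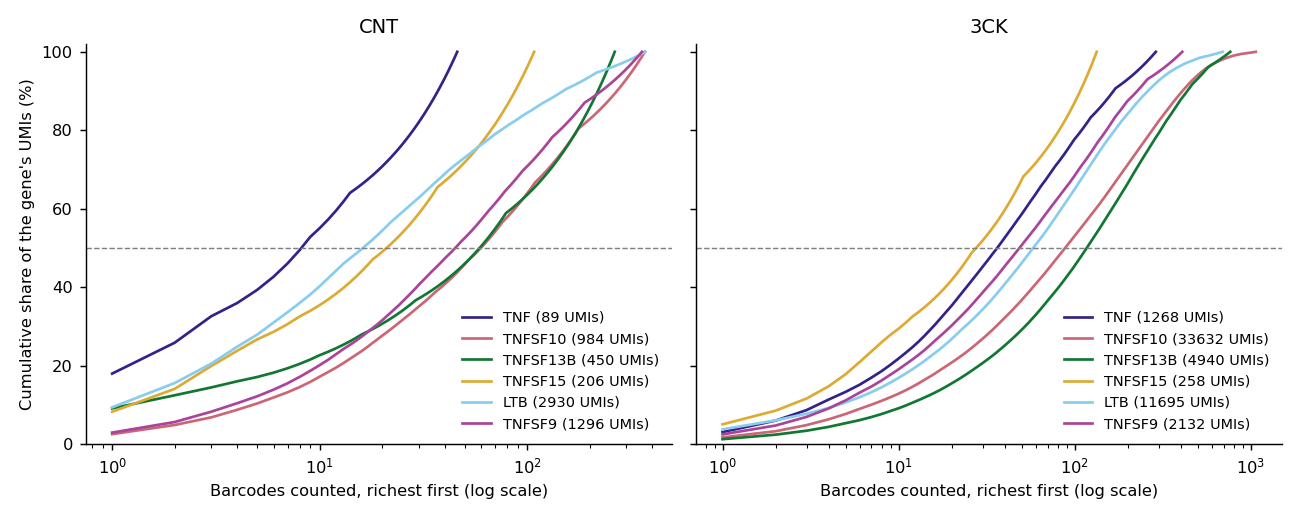
Cumulative share of each ligand's UMIs (percent) against the number of kept barcodes counted from the richest (log axis), for CNT on the left and 3CK on the right; the dashed line marks 50%. In CNT the TNF curve is highest at its start, with 16 of 89 UMIs in 1 barcode, and in 3CK the TNFSF13B curve is the last to reach 50%, at 117 barcodes.

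Epithelial barcodes often carried several ligands in 3CK. After thinning, 275 of 776 (35.4%) had UMIs of 2 or more members, beside 8 of 1062 (0.753%) in CNT. Higher shares of single members raise this share by themselves. TNFSF10, for example, was seen in 56.6% of these 3CK barcodes and in 5.84% of those in CNT. The share that members carried independently would give was not computed. LTB was seen in 39.9% of the 439 barcodes with TNFSF10 and in 21.4% of the 337 without. TNFSF13B was seen in 20.5% and 12.2% of the same barcodes. TNFSF9 did not follow that order, at 7.06% with TNFSF10 and 7.72% without. These shares describe barcodes of 1 library at 1 depth.

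Genes whose level followed a member most closely were sought across the 995 deep 3CK barcodes, as the 5 highest Pearson correlations of log2(UMIs per 10000 + 1), for the 3 members seen in at least 10% of thinned barcodes. For TNFSF10 they were OAS1 (r = 0.52), ISG15 (0.51), ISG20 (0.50), CXCL11 (0.50) and CD40 (0.49), of which OAS1, ISG15 and ISG20 are interferon-stimulated genes and CXCL11 an interferon-induced chemokine. For TNFSF13B they were IFIT3 (0.42), CXCL10 (0.42), IFI35 (0.41), IFIT2 (0.40) and IDO1 (0.40), the last a tryptophan-degrading enzyme. For LTB they were UBD (0.43), CLDN7 (0.43), RAB25 (0.42), VAMP8 (0.42) and IL32 (0.41); CLDN7, a tight-junction claudin, and RAB25 are epithelial genes, so the class difference of LTB enters these values. Within the 730 deep epithelial barcodes the closest gene to TNFSF10 was CXCL11 (0.51) and that to LTB was also CXCL11 (0.40), and the closest to TNFSF13B was TNFSF10 (0.45). The barcodes share 1 library and differ in depth.

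Ranges of single genes divided the epithelial class further. In 3CK, LTB was at 114 CPM in the 307 epithelial barcodes with at least 200 TTR UMIs per 10000, at 192 CPM in the 586 with 20 to under 200 and at 164 CPM in the 123 with under 20. TTR encodes transthyretin, a transport protein of liver and yolk-sac endoderm among other tissues. TNFSF10 stood at 380, 414 and 320 CPM in the same ranges, and TNFSF13B at 34.5, 58.2 and 44.4 CPM. All 3 ligands were thus highest in the middle range. LTB was also higher in the 307 epithelial 3CK barcodes with at least 2 UMIs per 10000 of LCN2, an antimicrobial protein of inflamed epithelium, at 207 CPM beside 141 CPM in the other 709; TNFSF9 had the opposite order, at 14.4 and 20.0 CPM. In CNT, the 123 epithelial barcodes with at least 2 UMIs per 10000 of FABP2, an enterocyte fatty-acid binding protein, had 30.9 CPM of TNFSF10 and 12.8 CPM of LTB, whereas the other 1537 had 10.1 and 39.3 CPM. The 3 TTR ranges, from highest to lowest, held 1284, 331 and 45 epithelial CNT barcodes, so the class makeup differed between the libraries. In the highest range LTB was at 36.3 CPM in CNT and 114 in 3CK, and in the middle one at 48.5 and 192. TNFSF9 was at 7.44 and 17.7 CPM in the highest range, past 2-fold, and at 15.6 and 19.9 CPM in the middle one. The lowest range had the opposite order, at 64.9 CPM (interval 56.7 to 73.9) in CNT and 13.8 CPM (11.5 to 16.5) in 3CK. Its 45 CNT barcodes, under the minimum of 50 set for a subset, held 226 of the 858 epithelial TNFSF9 UMIs.

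The remaining ligands of the superfamily were mostly low. Of 12 listed, 7 had at least 1 CPM in a library. Of these, 3 were at least 2-fold higher in 3CK, none of the 7 lower, and the median log2 ratio was 0.36. Among all genes that reached 1 CPM, 6.96% were at least 2-fold higher and 11.3% at least 2-fold lower. LTA, the lymphotoxin-α partner of LTB and a neighbour of TNF on chromosome 6, had 21 CNT UMIs and 298 3CK UMIs (log2 ratio 3.98, 3.34 to 4.69), the largest of the list. Its 3CK level of 3.24 CPM compares with 127 CPM for LTB. TNFSF14, the other main ligand of LTBR, had 28 and 280 UMIs (3.47, 2.91 to 4.09), and CD70 had 504 and 1130 (1.31, 1.16 to 1.47). EDA was the most abundant, at 46.1 and 59.2 CPM, and TNFSF12 had the lowest ratio (-0.74). Within single classes, EDA in mesenchymal barcodes (-1.76) and TNFSF12 in epithelial ones (-1.01) were at least 2-fold lower. So were 16.7% of genes in mesenchymal and 12.1% in epithelial barcodes. FASLG, the other main death ligand, had 2 and 6 UMIs, and CD40LG had 0 in both libraries.

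The receptors of the 6 members were listed beside them. Over all kept barcodes, 11 of 14 had at least 1 CPM. Of these, 6 were at least 2-fold higher in 3CK and none at least 2-fold lower, with a median log2 ratio of 1.19. Over all genes that reached 1 CPM, those shares were 6.96% and 11.3%. Within epithelial barcodes 6 of 11 were higher and none lower by that measure (median 1.42), beside 8.48% and 12.1% of genes. In mesenchymal barcodes 3 of 11 were higher and 2 lower (median 0.07), beside 6.05% and 16.7% of genes. For TNF, TNFRSF1A was the most abundant receptor of the list at 66.1 and 94.9 CPM (log2 ratio 0.52), and TNFRSF1B had the largest ratio, from 3.31 to 22.2 CPM (2.74, 2.58 to 2.91). For TNFSF10 the signalling receptors TNFRSF10A (1.29) and TNFRSF10B (0.43) were higher in 3CK, while the decoy receptors TNFRSF10C (-0.39) and TNFRSF10D (-0.75) were lower. In mesenchymal barcodes alone the ratios, in the same order, were -0.16 (interval -0.74 to 0.39), -0.26, -1.16 and -1.46. TNFRSF11B, the soluble decoy osteoprotegerin that also binds TNFSF10, was higher, from 23.7 to 86.0 CPM (1.86).

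For TNFSF15, both the signalling receptor TNFRSF25, from 4.33 to 16.2 CPM (1.91, 1.75 to 2.06), and the soluble decoy TNFRSF6B, from 12.8 to 29.1 CPM (1.19, 1.09 to 1.29), were at least 2-fold higher, although their ligand was not. TNFRSF9, the receptor of TNFSF9, had 3.24 and 12.6 CPM (1.96, 1.78 to 2.14). LTBR had 30.1 and 44.5 CPM (0.56, 0.50 to 0.63). In mesenchymal barcodes alone the log2 ratios were 1.16 for TNFRSF25, 0.38 for TNFRSF6B, 0.48 for TNFRSF9 and -0.23 for LTBR. The receptors of TNFSF13B were near 0: TNFRSF13C had 33 and 30 UMIs, TNFRSF13B had 0 and 7, and TNFRSF17 had 1 in each library. The files thus held a ligand at 53.8 CPM in 3CK with no receptor of its own above 1 CPM.

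**Figure D5:**
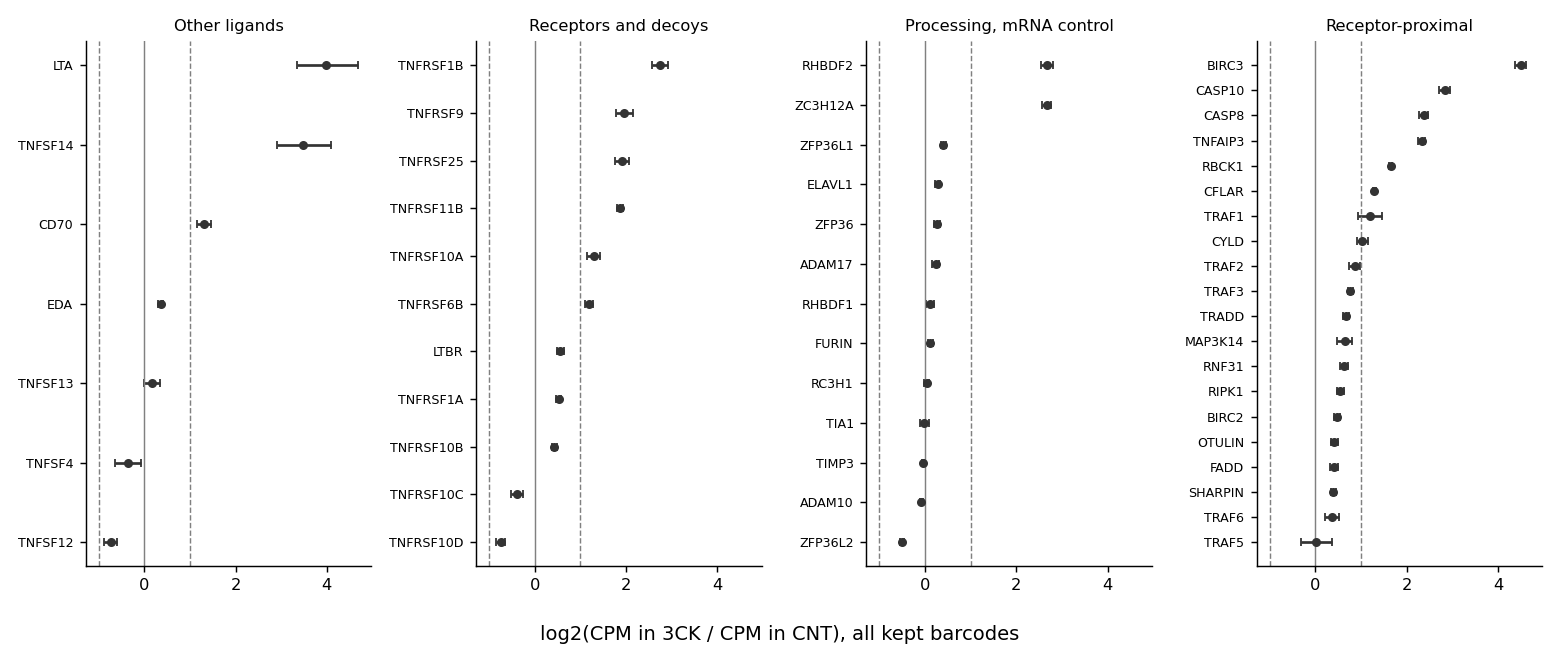
Log2 ratios of 3CK to CNT over all kept barcodes, with 95% exact counting intervals, for the genes with at least 1 CPM in 4 lists: other ligands, receptors and decoys, ligand processing and mRNA control, and receptor-proximal signalling. Dashed lines mark 2-fold, and BIRC3 has the highest ratio at 4.49. No gene of the lists lies under the lower line, beside 11.3% of all genes that reached 1 CPM.

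The 2 lists below are read beside all genes that reached 1 CPM, of which 6.96% were at least 2-fold higher in 3CK and 11.3% lower. Of 13 genes for ligand processing and TNF mRNA control, 2 were at least 2-fold higher in 3CK and none lower, and the median log2 ratio was 0.11. They were RHBDF2, which encodes the iRhom2 cofactor of the TNF sheddase ADAM17 (2.67, 2.54 to 2.81), and ZC3H12A, which encodes an RNase that degrades cytokine mRNAs (2.66, 2.56 to 2.76). ADAM17 itself stood at 28.3 and 33.3 CPM (0.23). TIMP3, an inhibitor of ADAM17, was the most abundant of the list at 376 and 364 CPM, and ZFP36L2, an mRNA decay factor, had the lowest ratio (-0.51). Of 20 receptor-proximal signalling genes, 8 were at least 2-fold higher in 3CK and none lower, with a median of 0.72. BIRC3, an NF-κB target that encodes cIAP2, had the largest ratio (4.49, 4.38 to 4.61), RBCK1, a subunit of the linear ubiquitin ligase, the highest 3CK level (210.1 CPM, from 67.1 CPM in CNT), and TRAF5 the smallest ratio (0.02). The caspases of the TNFSF10 receptors, CASP8 (2.37) and CASP10 (2.83), were both among the 8. These values are over all kept barcodes. In mesenchymal barcodes alone the medians of the processing and signalling lists were -0.19 and 0.49. There 2 and 4 genes were at least 2-fold higher and none lower, beside 6.05% and 16.7% of all genes.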

How the data were processed

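Single-cell RNA was measured in 1 CNT and 1 3CK library (10x Genomics 3′ v3.1, per the labels). The deposited matrices hold raw UMI counts per gene and barcode, made with Cell Ranger 7.1.0 on GRCh38, per the submitters' processing notes; the annotation is not given in the sources used here. Barcodes with at least 500 genes and at most 20% mitochondrial UMIs were kept, and Scrublet (scanpy 1.11.5; 0.8% per 1000 barcodes) removed 52 CNT and 16 3CK barcodes as doublets. This kept 2487 of 3257 CNT and 1398 of 1641 3CK barcodes. Counts were summed over barcodes and divided by the summed UMIs (CPM). Levels have exact Poisson intervals, ratios intervals from the exact binomial interval of the share of both counts, and shares Clopper-Pearson intervals, each at 95%. A gene entered a comparison with at least 1 CPM on the higher side, and 3 UMIs were used as the limit for a count of 0. Marker, receptor and pathway lists were described by counts past 2-fold, with their most abundant gene and the genes of highest and lowest ratio named. The ratio calculation was tested on simulated data. Alternatives changed barcode filters, class limits, scaling (edgeR 4.0.16 TMM factors among them), weighting and thinning depth. With 1 library per group, no test was run. The members and lists were chosen with earlier results of these data known. Growth and treatment details come from the labels.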

Additional observations from a re-analysis of the deposited data

Results flagged for a closer look

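Both results below have values of opposite sign in the groups compared, and in neither was the difference tested. The epithelial to mesenchymal log2 ratio of TNF was 1.64 in 3CK and -1.73 in CNT, where 16 of the 36 mesenchymal UMIs came from 1 barcode; without the richest barcode of each class the CNT value was -0.99. For TNFSF15 the 3CK to CNT log2 ratio was 0.65 in epithelial and -0.62 in mesenchymal barcodes, and its epithelial to mesenchymal ratio was 0.84 in 3CK and -0.43 in CNT. The mesenchymal interval of the first, -1.64 to 0.30, and the CNT interval of the second, -0.94 to 0.11, include 0. With each barcode given equal weight the CNT ratio was 1.36, so its sign was no longer opposite to that in 3CK, and the 3CK to CNT values were -0.05 and 0.65.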

How the results depend on the processing

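Over all kept barcodes 4 members, and within epithelial barcodes 4, were at least 2-fold higher in 3CK under each alternative run. The mesenchymal count was 4 or 5, and the count higher in epithelial than in mesenchymal 3CK barcodes 3 or 4. The number of members whose 3CK share interval lay above that of CNT was 5 or 6. It was 6 only without thinning, where the TNFSF15 intervals did not overlap. The same number over all genes was not computed, so this count is not a result about the members. Of the 150 log2 ratios recomputed under alternatives listed at the start, 144 kept their sign and 143 their side of the 2-fold line; of 66 under alternatives chosen after seeing the data (leaving out the richest barcode, the barcode with most PTPRC, or epithelial barcodes with collagen), 65 and 62 did. With each barcode given equal weight, the epithelial to mesenchymal ratio of TNFSF13B in CNT reversed from -1.06 to 0.36 and that of TNFSF15 went from -0.43 to 1.36, and the 3CK ratio of TNFSF9 went from -1.16 to -0.86; the cause was not tested. The 3CK to CNT ratio of TNFSF10 over all kept barcodes ranged from 5.16 to 5.33, of TNF from 3.12 to 4.22, of TNFSF13B from 3.52 to 3.84 and of LTB from 2.06 to 2.27. TMM factors moved the median of all genes by 0.09 and the total without the most abundant genes moved it by -0.08, on the log2 scale. No paired analysis was possible because each group has 1 library. Depth limits the mesenchymal values of TNFSF15 (43 and 13 UMIs in CNT and 3CK), LTB (26 and 30) and TNF (36 and 43).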

Other observations

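Barcodes that met neither class rule (253 in CNT and 258 in 3CK) were set aside in the comparisons. In CNT they had the highest levels of TNFSF13B, 16.5 CPM (interval 13.4 to 20.1), and of TNFSF15, 6.49 CPM (4.61 to 8.87), of the 3 sets of barcodes. For TNFSF13B 41 of those 99 UMIs came from 1 barcode, and for TNFSF15 12 of 39 did. In 3CK they had 66.6 CPM of TNFSF13B, 5.22 CPM of TNFSF15, 15.5 CPM of TNF and 37.3 CPM of TNFSF9. TNFSF9 was at 9.15 CPM in these barcodes of CNT. Its log2 ratio of 2.03 (1.62 to 2.46) was past 2-fold there, unlike in epithelial barcodes taken as a whole. Their median depth was 12865 UMIs in CNT and 26663.5 in 3CK.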
